A study of Mus musculus with 44 samples.

Results

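Dusp1, Dusp4, Dusp5, Dusp6, Dusp14, Spry2, Spry4, Spred1 and Spred2 are 9 genes for feedback inhibitors of mitogen-activated protein kinase (MAPK) signaling. They were picked by symbol, as members of 3 families whose responses to stimulation in these data were already known, so that their changes under stimulation and light are given as descriptions, without a test of their own. They were 9 of the 17126 RefSeq transcripts listed in the files. Levels, translation and poly(A)-tail lengths of mRNAs had been measured in mouse neurons and brain tissue. Of the 44 samples, 42 were used here.

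The 9 cultures were cortical neurons of C57BL6J pups, pooled from about 5 animals a sample and treated with AraC, which kills dividing cells. At 14 days in vitro (DIV14), a culture was left unstimulated, or was given the neurotrophin BDNF or glutamate with its co-agonist glycine (glu/gly) for 30 min. The DIV14 GFP, miR-1 and miR-155 cultures had been transduced on day 5 with a lentivirus in which the neuronal synapsin promoter drove EGFP, either alone or with a microRNA (miRNA) in its 3′ UTR. At 10 days (DIV10), cultures were harvested after 0, 10 or 30 min of depolarization by KCl. Whole tissue came from the adult hippocampus and the adult cortex of 1 male mouse each and from hippocampi of embryos of day 16. The visual cortex came from 8 mice of 6 to 7 weeks, which spent 1 week in the dark and were then killed at once (4 dark mice) or after 1 h of light (4 light mice). No culture or tissue had a second library of the same assay, so only the mice were replicates. Of the cultures, 6 had been prepared in 2 batches of 3, which are not named, so that stimulus and batch cannot be told apart.

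The assays were RNA-seq (12 libraries), ribosome profiling, which sequences ribosome-protected fragments (RPFs, 10 libraries), and 2 methods that read the 3′ end of an mRNA together with its tail, TAIL-seq (10 libraries) and PAL-seq (10 libraries). In the last 2, each tag is 1 mRNA end, so that the tag count of a gene is also a measure of its level. Reads on genes in the cultures ran from 448022 to 2111244 for RNA-seq, from 2812215 to 9477806 for RPFs and from 389654 to 1057812 for TAIL-seq tags, and in the mice from 1233538 to 4812273 tags, with dark mouse 2 the deepest. Neuronal markers were present in every library, at a summed 7798 to 8775 CPM (counts per 1000000 counted on genes) in the dark mice and 8038 to 9159 in the light mice. Astrocyte markers summed to 3075 to 3575 in the dark and 2699 to 3082 in the light, and oligodendrocyte markers to 754 to 1259 and 502 to 920, with 6 of 6 and 5 of 5 markers detected in every mouse. Their part in the differences between the groups was not tested. Dark mouse 4 stood above the other dark mice in every early gene of the list followed below, among them Fos, except Egr3 and Fosl2. Its Fos level was 152 CPM, whereas the other 3 had 8.21 to 54.6 and the light mice 470.0 to 990.2. In these bulk samples, fewer cells of a type and less RNA per cell cannot be told apart.

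Growth factors, neurotrophins and calcium entry activate Ras, which through the kinases Raf and MEK activates ERK, and ERK drives the transcription of early genes in stimulated neurons. Dual-specificity phosphatases (DUSPs) remove phosphates from MAPKs and so end the signal. Sprouty (Spry) and Spred proteins act further up, between the receptor and Raf. Many of these inhibitors are themselves induced by the signal they dampen, which makes them a negative feedback loop.

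The promoters of Dusp1 and Dusp5, 2 of the genes whose RPFs stood higher with BDNF and glu/gly, are shown first for the motifs they held, followed by 3′-UTR sites. Sequences are from RefSeq on GRCm38 (mm10), written 5′ to 3′ on the gene's strand, and 7 of the 9 genes had a promoter entry. The promoter of Dusp1 is printed with its start site 50 bases from the right end, at chr17:26508423-26508722 on the minus strand. Capitals mark TGACGTCA, the full cyclic-AMP response element (CRE), which lay 143 to 136 bases upstream of the start, and a separate half-site TGACG farther upstream. Of 32851 promoters of the same length, 1.79% held the full element and 20.8% the half-site, on either strand. The full element includes 2 overlapping half-sites.
Dusp1 promoter: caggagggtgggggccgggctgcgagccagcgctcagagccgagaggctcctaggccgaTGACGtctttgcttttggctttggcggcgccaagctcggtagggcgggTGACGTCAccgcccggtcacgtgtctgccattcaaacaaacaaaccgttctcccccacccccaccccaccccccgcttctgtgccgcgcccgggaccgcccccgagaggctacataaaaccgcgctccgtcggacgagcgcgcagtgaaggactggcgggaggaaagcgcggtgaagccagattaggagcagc

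The promoter of Dusp5, at chr19:53528895-53529194 on the plus strand, is shown because it held 2 adjoining matches to the CArG box, the motif of serum response factor. They are in capitals and lay 82 to 63 bases upstream of the start. A CArG box was found in 1.63% of the promoters.
Dusp5 promoter: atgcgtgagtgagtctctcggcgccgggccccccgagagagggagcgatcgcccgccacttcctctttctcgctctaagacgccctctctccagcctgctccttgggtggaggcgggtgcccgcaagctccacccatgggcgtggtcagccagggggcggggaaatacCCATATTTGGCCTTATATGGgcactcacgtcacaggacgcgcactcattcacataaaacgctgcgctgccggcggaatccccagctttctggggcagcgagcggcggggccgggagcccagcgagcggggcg
None of the 7 promoters held an AP-1 site (TGANTCA) or an EGR site (GCGTGGGCG), which were found in 7.81% and 0.612% of all promoters. The half-site also occurred in the promoters of Dusp5 and Spred2, starting 55 and 51 bases upstream. The promoter of Dusp6, whose RPFs also stood higher with BDNF and glu/gly, held no CRE, half-site or CArG box. Those of Dusp14, Spry2 and Spred1 held none either. These matches are descriptions of the letters in the window.

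In 3′ UTRs, TATTTAT is the core of the AU-rich element, a sequence of many short-lived mRNAs. It occurred 3 times in the 689-nt 3′ UTR of Dusp1 and 2 times in the 856-nt 3′ UTR of Spry2, where 18.4% and 21.6% of 3′ UTRs within 20% of those lengths held at least 1. The longer 3′ UTRs of Spry4 (3559 nt) and Spred1 (4330 nt) held 4 and 3, at lengths at which 56.2% and 61.4% did. The other 5 genes had none. The sites of the 2 shorter 3′ UTRs follow, with the motif in capitals.
Dusp1 site at chr17:26506160-26506186: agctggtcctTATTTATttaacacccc
Dusp1 site at chr17:26505871-26505897: tttttaccttTATTTATttttgtgtag
Dusp1 site at chr17:26505675-26505701: tatgtttgttTATTTATgatctgaagt
Spry2 site at chr14:105892093-105892119: gtgtaaagaaTATTTATttgaagtttt
Spry2 site at chr14:105892054-105892080: aaaaaaagaaTATTTATtttaagaggc

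In the visual cortex, Dusp1, Dusp6, Dusp14 and Spry2 were higher in all light mice than in all dark mice, by about 2- to 5-fold. The share of all genes separated in this way was not computed, so nothing is read from it. Spry4 was also higher on average but overlapped, and Spred1 differed little. Dusp5 had no row in any tail file. Dusp4 had at most 10 tags and Spred2 at most 5 in any mouse, too few for a fold.

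Dusp1, a nuclear phosphatase of all 3 MAPK classes and itself an early gene, had 29.4, 52.2, 78.8 and 169 CPM in dark mice 1 to 4. It had 464, 467, 306 and 199.7 in light mice 1 to 4. The means were 82.4 ± 61.2 and 359 ± 130.2 (SD, n = 4 each), a 4.36-fold difference, with a log2 fold change of 2.23 (SE 0.31) in edgeR. Both groups spread widely, and the dark mouse with the most Dusp1 lay close below the light mouse with the least. Dark mice 1 to 4 ran in the same order for Dusp1 as for Fos, which had 8.21, 19.1, 54.6 and 152 CPM. Without dark mouse 4, the log2 fold change of Dusp1 was 2.79 (SE 0.27).

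Dusp6, a cytoplasmic phosphatase with a preference for ERK, had the largest fold of means. It stood at 41.0, 62.8, 58.6 and 87.8 CPM in the dark and at 288.6, 373, 291 and 204 in the light. The means were 62.5 ± 19.3 and 289.5 ± 69.0, a 4.63-fold difference, with a log2 fold change of 2.24 (SE 0.17). Its lowest light mouse was light mouse 4, which was also the lowest light mouse for Dusp1 and Fos. Dusp14, an atypical small dual-specificity phosphatase, started from a higher level. It had 233, 276, 286 and 258 CPM in the dark and 414, 512, 721 and 428 in the light. The fold of means was 1.97 and the log2 fold change 1.01 (SE 0.13), with light mouse 3 above the other light mice.

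Spry2, an inhibitor of receptor signaling to Ras, had a smaller standard error than Dusp1, Dusp6 and Dusp14. The dark mice had 109, 125, 116 and 139 CPM and the light mice 308, 328, 309.7 and 258. The fold of means was 2.46 and the log2 fold change 1.32 (SE 0.11), and the gap between the groups exceeded the spread within each. Spry4, its relative, was rare, with 8 to 71 tags per mouse. It had 11.6, 14.8, 6.25 and 23.4 CPM in the dark and 26.8, 27.5, 18.8 and 33.3 in the light. The log2 fold change was 0.94 (SE 0.28), and dark mouse 4 lay above light mouse 3. Spred1, which binds Ras and the RasGAP neurofibromin, had 241, 263, 248 and 299 CPM in the dark and 225, 199.2, 247 and 279.9 in the light. The groups overlapped, with a log2 fold change of -0.11 (SE 0.11).

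Of the 9 genes, 6 had enough tags to enter the fit across all genes, and 4 of these 6 passed an adjusted p of 0.05 in edgeR, all of them higher in the light. Over all genes, 116 of 9554 (1.21%) passed in that direction and 12 in the other. Since the genes were picked with this response known, nothing is read from the count. The median log2 fold change was 1.16 over the 6 and -0.0047 over all genes.

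**Figure D1:**
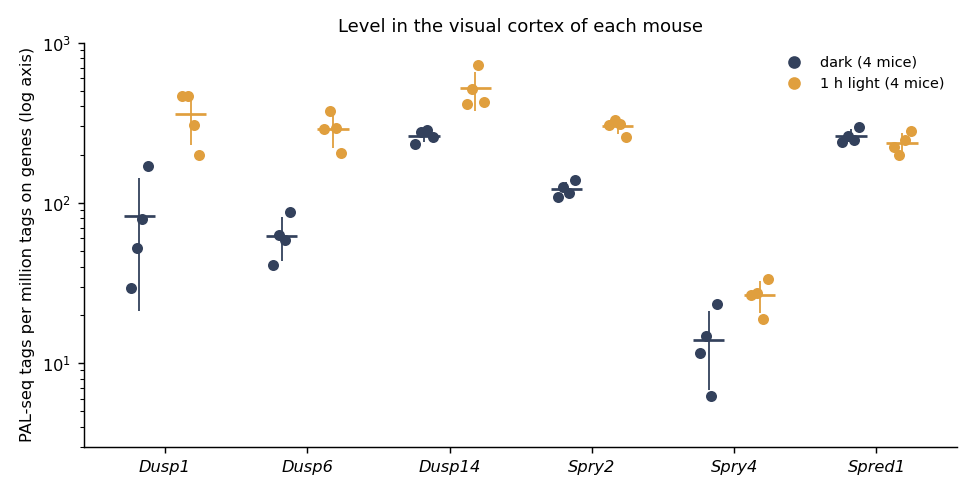
Levels of 6 feedback genes in the visual cortex of 4 dark and 4 light mice, in CPM on a log axis, with 1 point per mouse and a bar at the group mean. All light mice lie above all dark mice for Dusp1, Dusp6, Dusp14 and Spry2, and the groups overlap for Spry4 and Spred1.

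Tail lengths of these genes differed in different directions. The mean tail of Dusp1 was shorter in every light mouse than in any dark mouse, that of Spred1 was longer in every light mouse, and those of Dusp6 and Spry2 overlapped widely. As for levels, the share of all genes whose tails separated the groups was not computed, so nothing is read from the separations. The median gene gained 3.75 nt with light, and the all-gene median tail ran from 77.5 to 92.4 nt in the dark mice and from 81.6 to 97.8 nt in the light mice.

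Dusp1 tails averaged 84.1, 90.8, 87.9 and 105.6 nt in the dark and 61.1, 64.7, 82.7 and 64.2 nt in the light. The means were 92.1 ± 9.41 and 68.2 ± 9.81 nt (SD, n = 4 each), a difference of -23.9 nt beside the 4.36-fold higher level. Dark mouse 1 contributed only 43 tags, under the cutoff of 50, which kept Dusp1 out of the fit across genes. The shortest dark tail still exceeded the longest light tail, by less than the spread within either group. The mouse with the longest Dusp1 tail among the light mice, light mouse 3, also had the longest tails over all genes.

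Spred1 differed little in level, and its tails were 90.7, 87.2, 74.9 and 72.1 nt in the dark and 97.2, 111.4, 123.9 and 91.1 nt in the light. The difference was 24.7 nt, with a standard error of 6.68 nt, which limma gave to every gene. Dusp14, whose level was higher in the light, had tails of 95.4, 94.3, 79.3 and 84.2 nt in the dark and 107.7, 126.4, 120.5 and 93.5 nt in the light. Its difference of 23.7 nt was close to that of Spred1, but light mouse 4 overlapped the dark mice.

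Dusp6 had 91.6, 91.0, 90.8 and 96.9 nt in the dark and 83.3, 92.4, 116 and 79.6 nt in the light. Its mean differed by 0.23 nt, and light mouse 3 alone stood above all dark mice. Spry2 had 90.6, 93.1, 79.0 and 79.9 nt in the dark and 89.0, 94.1, 99.4 and 81.7 nt in the light, a difference of 5.41 nt within the overlap of the groups. In the fit across genes with at least 50 tags in every mouse, 0 of the 4 feedback genes tested passed an adjusted p of 0.05 in limma, and 2 had an unadjusted p under 0.05, both longer. Over all genes, 10 of 4321 (0.231%) had longer tails and 0 shorter ones, and 169 and 1 were under 0.05 without adjustment. Spred1 and Dusp14 passed when the cutoff was 100 tags, which left fewer genes to adjust over, and when the variance was allowed to follow the tag count. Without dark mouse 1, Dusp1 could enter the fit and passed as shorter and Spred1 as longer, and without light mouse 4, Spred1 and Dusp14 passed as longer. Nothing is read from these calls, since the genes were picked with results of these mice known.

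**Figure D2:**
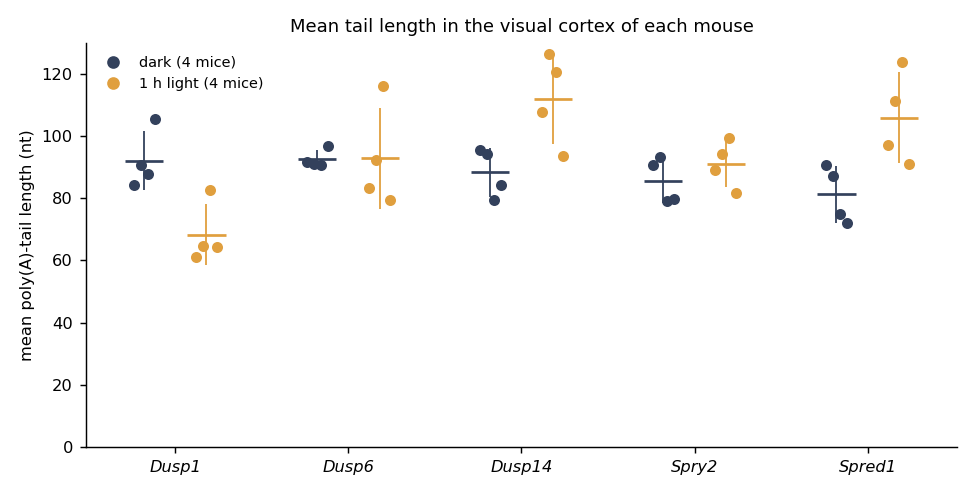
Mean poly(A)-tail length in nt of the feedback genes with tail data in 4 dark and 4 light mice, with 1 point per mouse and a bar at the group mean. Light tails of Dusp1 lie at 61.1 to 82.7 nt, below all dark mice, those of Spred1 at 91.1 to 123.9 nt lie above all dark mice, and the groups overlap for the others.

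In the cultures, each comparison had 1 library on each side, so that ratios of CPM are given with exact 95% intervals that cover counting error only. Dusp1 and Dusp6 stood higher in RPFs under all 4 stimuli, with intervals above 1, and the RPFs of Spred1 stood lower under all 4, with intervals below 1. Dusp1 is short of RNA-seq reads, with 3 to 18 per library in the 6 cultures of the stimulus sets. Its mRNA level there is better read from TAIL-seq tags, since RPFs depend on translation as well as on mRNA level.

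BDNF gave the largest RPF ratios of Dusp1, Dusp5, Dusp6 and Spry2. Dusp1 had 596 RPFs with BDNF and 104 without, a 6.72-fold ratio (5.45 to 8.36), and 223 tags against 60, a 3.66-fold ratio (2.74 to 4.96). Its RNA-seq, at 13 reads against 3, gave 4.60 (1.26 to 25.2). Dusp5, another inducible nuclear phosphatase for ERK, had 64 RPFs against 34, a ratio of 2.21 (1.43 to 3.45). Dusp6 was higher to a similar extent in RNA-seq, where 79 reads against 36 gave 2.33 (1.55 to 3.56), and in RPFs, where 639 against 315 gave 2.38 (2.08 to 2.73). Its tags gave 1.64 (1.26 to 2.13). Spry2 was 1.45-fold higher in RPFs (1.19 to 1.77). Spred1 was lower in both RNA-seq, at 0.70 (0.49 to 0.98), and RPFs, at 0.75 (0.60 to 0.93). Its tag ratio was 0.83 (0.63 to 1.09). The intervals of Dusp4, Dusp14, Spry4 and Spred2 included 1 in RPFs. Summed markers of other cells were lower with BDNF too. Those of astrocytes, 6 of 6 detected in every library, stood at 1639 CPM without and 1216 with BDNF in RNA-seq and at 2124 and 1725 in RPFs. Oligodendrocyte precursor markers, 4 of 4 detected, stood at 199 and 114 in RPFs, and endothelial markers, 3 of 4 detected with Cldn5 at 0, at 45.0 and 22.4. Their part in the ratios was not tested.

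Glu/gly was compared with the same unstimulated culture as BDNF. Dusp1 was 3.94-fold higher in RPFs (3.13 to 5.0, from 266 RPFs) and 2.5-fold in tags (1.81 to 3.47, from 115 tags). Dusp5 was 2.09-fold higher in RPFs (1.31 to 3.35). Dusp6 was 1.85-fold higher in RPFs (1.59 to 2.16) and 1.62-fold in RNA-seq (1.07 to 2.5), and its tag ratio was 1.30 (0.97 to 1.75, 97 tags in each library). Spry2, at 0.85 in RPFs (0.66 to 1.08), did not stand above the unstimulated culture. Spred1 was lower in RPFs, at 0.67 (0.52 to 0.86), with an RNA-seq ratio of 0.88 (0.66 to 1.19). Compared directly, BDNF exceeded glu/gly in RPFs by 1.70-fold for Dusp1 (1.47 to 1.98), 1.29-fold for Dusp6 (1.13 to 1.46) and 1.72-fold for Spry2 (1.35 to 2.19). For Dusp5 the ratio was 1.06 (0.71 to 1.58), and for the other 5 genes the intervals also included 1.

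With KCl, the phosphatases differed in their time course. After 10 min, Dusp1 was 1.45-fold higher in RPFs (1.2 to 1.75), and its tags numbered 25 with and without KCl. After 30 min, it was 3.51-fold higher in RPFs (2.94 to 4.19) and 3.58-fold in tags (2.31 to 5.76, 115 against 25 tags). Between 10 and 30 min, the ratio of Dusp1 was 2.42 in RPFs (2.01 to 2.92) and 3.4 in tags (2.19 to 5.47). Dusp6 reached 1.87-fold in RPFs after 10 min (1.64 to 2.13) and stood at the same level after 30 min, with a ratio of 0.99 between the times (0.85 to 1.15). Its tags were 1.63-fold (1.03 to 2.60) and 1.79-fold (1.18 to 2.79) higher, whereas its RNA-seq ratios, 0.97 (0.61 to 1.52) and 1.11 (0.75 to 1.62), had intervals that included 1. Dusp4, a nuclear phosphatase for ERK, p38 and JNK, was 1.59-fold higher in RPFs after 10 min (1.39 to 1.82) and 1.17-fold after 30 min (0.98 to 1.39). The ratio of Dusp5 between the times was 0.53 in RPFs (0.32 to 0.85, 23 against 79 RPFs).

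Spred1 and Spred2 had fewer RPFs with KCl. Spred1 had 67 RPFs after 10 min and 368 without KCl, a ratio of 0.31 (0.24 to 0.41), whereas its RNA-seq ratio was 1.18 (0.88 to 1.58) and its tag ratio 0.90 (0.64 to 1.27). After 30 min the RPF ratio was 0.55 (0.42 to 0.72), RNA-seq stood at 1.5 (1.18 to 1.92) and the tag ratio at 0.94 (0.69 to 1.29). Spred2 had RPF ratios of 0.37 (0.25 to 0.54) and 0.46 (0.29 to 0.71), from 35 and 24 RPFs, with too few RNA-seq reads (7 and 9) to follow its mRNA. The RPFs of Spry2 stayed near the control at both times, at 0.83 (0.69 to 1.00) and 1.12 (0.91 to 1.38), and its tags were 1.60-fold higher after 30 min (1.13 to 2.30).

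Counts of genes past 2-fold put these ratios beside those of all genes with at least 20 reads over the pair. With BDNF, 1 of 5 feedback genes counted was at least 2-fold higher in RNA-seq (1.61% of all genes), 3 of 9 in RPFs (0.845%) and 1 of 6 in TAIL-seq (1.08%). With glu/gly, these were 0 of 5 (3.13%), 2 of 9 (0.812%) and 1 of 6 (1.19%). With 10 min of KCl, they were 0 of 6 (1.21%), 0 of 9 (1.37%) and 0 of 6 (1.91%), and with 30 min 1 of 7 (2.50%), 1 of 9 (1.61%) and 1 of 6 (2.64%). At least 2-fold lower RPFs were found for 2 of 9 after 10 min of KCl (6.28%) and 1 of 9 after 30 min (6.20%). In RNA-seq with glu/gly, 1 of 5 was at least 2-fold lower (2.98%), which was Dusp4 at 0.42 (0.14 to 1.12, 7 against 14 reads). The stimulus responses were part of what was known when the genes were picked, and nothing is read from these counts. The median RPF ratio of the 9 genes was 1.18 with BDNF, 1.01 with glu/gly, and 1.08 and 1.12 with KCl, beside 0.962, 0.958, 0.965 and 0.980 over all genes.

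**Figure D3:**
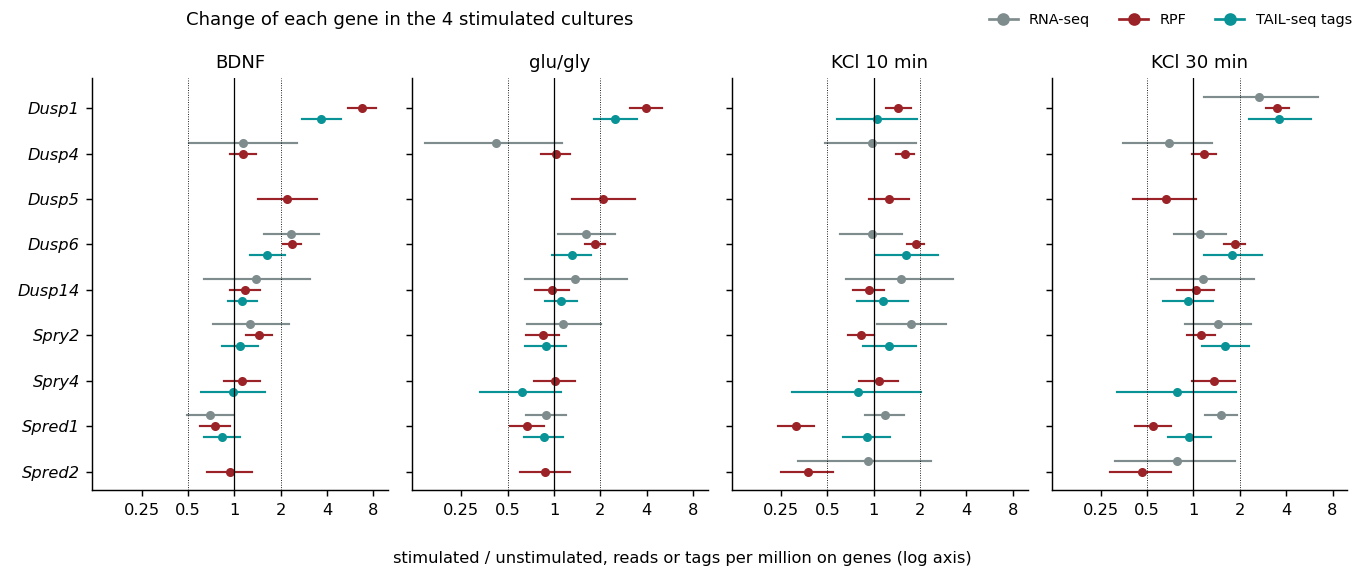
Ratios of the feedback genes in stimulated against unstimulated cultures for RNA-seq, RPFs and TAIL-seq tags on a log axis, with 95% counting intervals and 1 library on each side. Dusp1 reaches 6.72 with BDNF in RPFs, and the RPF points of Spred1 lie below 1 under all 4 stimuli.

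Among genes with at least 50 tags in both libraries at DIV14, Dusp6 had longer tails with both stimuli, and Dusp1 mainly with BDNF. With BDNF, Dusp1 went from 114.9 to 135.0 nt and Dusp6 from 109.5 to 129.9 nt, whereas the median change was -1.04 nt and the 90th percentile of all genes was a gain of 8.03 nt. With glu/gly, Dusp6 stood at 131.0 nt, a gain of 21.5 nt, and Dusp1 gained 3.31 nt. The median change was -4.68 nt and the 90th percentile a gain of 4.19 nt. Dusp1 thus had a longer tail with BDNF at DIV14 and shorter tails in light-exposed cortex. These samples differ in tissue, method and time after stimulation, so that the 2 cannot be set against each other in nt.

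Spred1 tails were longer in each of the 4 stimulated cultures, by 8.37 nt with BDNF, 7.61 nt with glu/gly, and 7.95 and 11.9 nt after 10 and 30 min of KCl. The median changes of all genes were -1.04, -4.68, -0.16 and 2.22 nt. Relative to the median gene, the Spred1 tail stood at -14.0 nt in the unstimulated culture of DIV14, at -12.4 nt in that of DIV10 and, with 88.5 nt, at -11.0 nt in adult cortex. Dusp14 and Spry2 differed by at most 5.84 nt in either direction in the same comparisons. In the KCl series, Dusp1 and Dusp6 had 25 and 33 tags without KCl, under the cutoff. At a cutoff of 20 tags, Dusp6 stood at 123.0 nt without KCl, at 104.3 nt after 10 min and at 101.8 nt after 30 min, shorter where it had been longer with BDNF and glu/gly. At the same cutoff, Dusp1 stood at 104.2 nt without KCl, at 97.5 nt after 10 min, from 25 tags each, and at 112.4 nt after 30 min, so that its tail was shorter at the first time and longer at the second. In adult cortex, Dusp6 (114.1 nt), Spry2 (111.4 nt) and Dusp14 (107.6 nt) had tails longer than the median of 99.5 nt, and Dusp1 (96.6 nt) lay near it.

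Translational efficiency (TE), the log2 ratio of RPF RPM to RNA-seq RPM, separated Dusp6 from Spred1. TE was computed where RNA-seq reached 10 RPM, which gave 27 values over 5 of the 9 genes in 10 conditions. Dusp6 lay above the median gene in 7 of 7 conditions, in the unstimulated DIV10 culture by only 0.18 with a counting error of 0.19, and Spred1 lay below it in 10 of 10. Dusp1, Dusp5, Dusp14 and Spry4 never reached the cutoff.

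Dusp6 had a TE of 1.68, 1.62 and 1.57 in the unstimulated, BDNF and glu/gly cultures and of 1.36 and 1.95 at DIV10 and after 10 min of KCl. It had 2.58 in adult hippocampus and 2.91 in adult cortex, where it stood 1.71 and 1.60 above the median gene. Counting errors were 0.083 to 0.28 on this log2 scale. Between the unstimulated and the BDNF culture, its TE differed by less than its counting error.

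Spred1 had a TE of -0.20 in the unstimulated culture, -0.18 with BDNF and -0.90 with glu/gly, with counting errors of 0.18 to 0.22. At DIV10 it had -0.01 without KCl, -2.27 after 10 min and -1.02 after 30 min. The value after 10 min rests on the 67 RPFs given above, and it placed Spred1 at percentile 1.66 of all genes. The median gene itself stood at 1.17, 0.74 and 1.44 in these 3 samples, so that relative to it Spred1 went from -1.18 to -3.01 and -2.46. In the tissues, the TE of Spred1 was lowest in the embryonic hippocampus (-1.26) and stood at -0.27 in the adult one and 0.00 in adult cortex. Relative to the median gene, these values were -1.93, -1.15 and -1.31, so that the order of the 2 adult tissues changed. Spry2 was intermediate, with 0.37 to 1.94 over 6 conditions and 3 of them above the median gene. Dusp4 had 1.81 in embryonic hippocampus. Spred2 was below the median gene in all 3 tissues, at -1.51 and -0.14 in the adult and the embryonic hippocampus and at 0.53 in the cortex. Relative to the median gene, it stood at -2.38, -0.81 and -0.78 in that order.

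The order of the genes differed between mRNA and ribosomes. Per kilobase of counted reading frame, Spred1 was the first of the 9 in RNA-seq in 10 of 12 libraries but between rank 5 and rank 8 in RPFs, whereas Dusp6 was first in RPFs in 6 of 10. In the unstimulated DIV14 culture, RNA-seq RPM per kilobase were 29.7 for Spred1, 13.9 for Dusp6, 11.8 for Spry2 and 10.1 for Dusp14, with 13 to 36 reads behind the last 3, whose order is not resolved at this depth. The others lay at 1.15 to 5.17. In RPFs of the same culture, Dusp14 (45.2) and Dusp6 (44.7) led, followed by Spry2 (32.2), Dusp4 (28.9) and Spred1 (25.9), and Dusp5 was last at 4.79. Dusp1, at 15.4 RPF RPM per kilobase there, reached 98.6 with BDNF, next to 101.7 for Dusp6.

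Among the tissues, Dusp4 and Dusp5 differed in opposite directions between the embryonic and the adult hippocampus. Dusp4 led all 9 genes in embryonic hippocampus, with 83.3 RNA-seq RPM and 291.6 RPF RPM per kilobase, against 7.66 and 37.1 in adult hippocampus. On the scale of CPM, the adult level was 0.11 of the embryonic in RNA-seq (0.10 to 0.13, 173 against 1592 reads) and 0.13 in RPFs (0.12 to 0.14). Dusp5 ran the other way, 11.5-fold higher in the adult in RNA-seq (6.76 to 21.0) and 12.9-fold in RPFs (10.2 to 16.4). Dusp6 was 3.31-fold higher in RNA-seq (2.65 to 4.15) and 4.62-fold in RPFs (4.25 to 5.04).

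Spry2 showed the widest gap between the assays. It was 3.4-fold higher in adult than embryonic hippocampus in RNA-seq (2.74 to 4.24) but 24.5-fold in RPFs (17.6 to 35.2), with 36 RPFs in the embryo against 111 RNA-seq reads. Spry4 was 3.39-fold higher in RNA-seq (2.12 to 5.60) and 0.92-fold in RPFs (0.80 to 1.06). Spred2 was 1.98-fold higher in RNA-seq (1.72 to 2.28) and stood at 0.63 in RPFs (0.55 to 0.73). Spred1 was higher in both, at 1.36 (1.24 to 1.5) and 2.24 (2.02 to 2.48). Dusp1 was lower in both, at 0.61 (0.46 to 0.82) and 0.41 (0.37 to 0.47), and Dusp14 stood at 0.87 (0.67 to 1.12) and 1.79 (1.62 to 1.96).

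At 2-fold, 4 of the 9 genes were higher in adult hippocampus in RNA-seq (22.3% of all genes) and 1 lower (26.6%). In RPFs, 4 were higher (30.3%) and 2 lower (33.5%). Markers of other cells differed too, as the summed oligodendrocyte markers ran from 34.9 to 1956 CPM in RNA-seq over the 3 tissues and markers of progenitors and young neurons from 58.5 to 2214. Their part in these differences was not tested. All feedback genes had fewer than 50 tags in both hippocampi, so that no tail is given there.

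**Figure D4:**
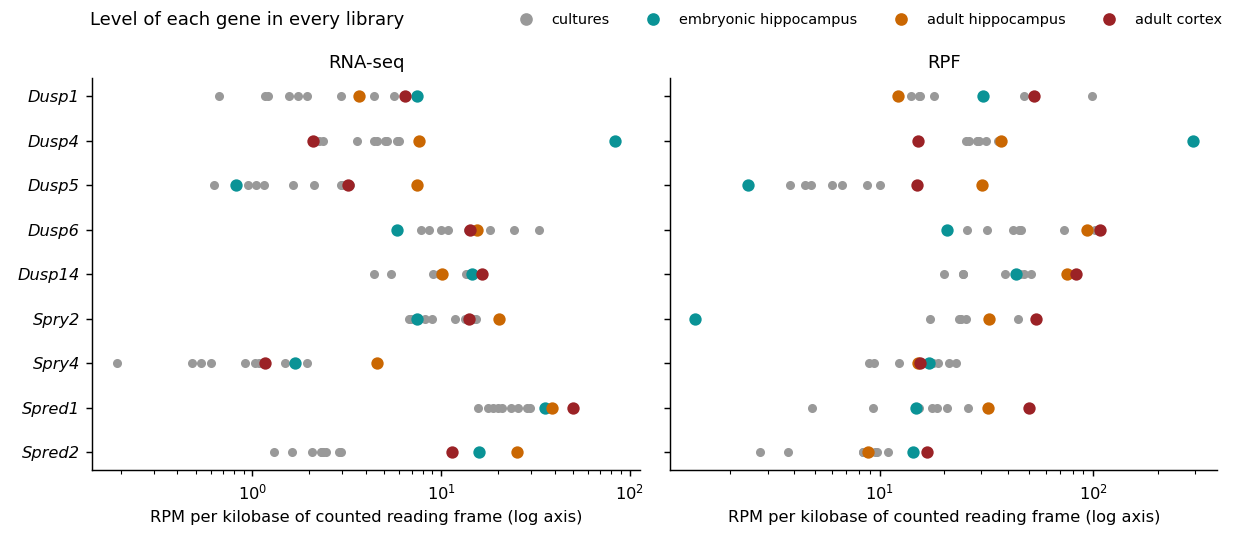
Levels of the 9 feedback genes in RNA-seq and RPFs of the cultures and tissues, in RPM per kilobase of counted reading frame on a log axis, with 1 library per condition. Dusp4 in embryonic hippocampus (291.6 in RPFs) is the highest point, and Spred1 leads RNA-seq in 10 of 12 libraries.

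Of the 9 genes, Spred1 and Spry4 had 3′-UTR sites for both miRNAs used in the cultures. Spry4 had 1 of each and at most 12 RNA-seq reads or TAIL-seq tags in these cultures, and Spred1 is shown. The mature miR-155 is shown with its seed, bases 2 to 8, in capitals, followed by the Spred1 sites with the letters pairing to a seed in capitals, on the plus strand. For miR-1 these are ACATTCC, and for miR-155 AGCATTA, or GCATTAA, which pairs with bases 2 to 7 and ends in an A.
miR-155 at chr16:84714143-84714165: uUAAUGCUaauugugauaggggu
Spred1 miR-1 site at chr2:117178523-117178549: atctgccaccACATTCCatatgtgttg
Spred1 miR-1 site at chr2:117179153-117179179: cttatacaccACATTCCtgtcgcagag
Spred1 miR-155 site at chr2:117178904-117178930: acaaggcagaAGCATTAactggatagt
Spred1 miR-155 site at chr2:117180159-117180185: taatgtttgtGCATTAAtattttcagt
Of 3′ UTRs within 20% of the length of that of Spred1, 28.3% held ACATTCC and 26.6% AGCATTA.

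With miR-1, Spred1 had an RNA-seq ratio to the GFP culture of 0.51 (0.37 to 0.70, 88 against 80 reads) and a tag ratio of 0.89 (0.58 to 1.37). The 2 measures overlap in their intervals, and the tags allow no statement on direction. With miR-155, it had 0.78 in RNA-seq (0.61 to 1.01) and 1.15 in tags (0.77 to 1.71). Dusp6 was 2.10-fold higher in the miR-155 culture in RNA-seq (1.37 to 3.39, 228 against 23 reads) and 1.60-fold in tags (1.00 to 2.59). Dusp5 stood at 0.32 there in RNA-seq (0.12 to 0.90, 12 against 8 reads). The GFP library was the shallowest, with 448022 RNA-seq reads on genes, and these comparisons share it.

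The rest of the pathway was followed in lists set with earlier results known. The early genes that report stimulation were the one list of which most genes moved in the mice, as 12 of 12 passed an adjusted p of 0.05 in edgeR, all higher, and 10 of 12 in DESeq2. Egr2 had a log2 fold change of 5.33 (SE 0.39, adjusted p = 2.99e-09) and Fos one of 3.91 (SE 0.42, adjusted p = 1.42e-06), whereas Srf, the partner of the CArG box, had 0.75 (SE 0.13, adjusted p = 0.0015). Only 3 of the 12 had enough tags for the tail fit. Of these 3, 1 passed in limma, Egr3, whose tail was longer by 47.5 nt (SE 6.68, adjusted p = 5.34e-09). The log2 fold changes of Dusp1 and Dusp6 fall below the list's median of 3.14 and above that of Srf.

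The other 5 lists are given beside all genes, of which 116 of 9554 (1.21%) passed as higher and 12 as lower. The lists are too short for such shares, so nothing is read from their counts. Of 17 receptors, adaptors and Ras regulators tested, 0 passed in edgeR, and of 11 kinases of the Raf-MEK-ERK cascade 1 passed. This was Mknk2, a kinase downstream of ERK, with 35.6, 18.5, 17.2 and 25.8 CPM in the dark and 43.8, 48.5, 46.2 and 33.9 in the light. Its log2 fold change was 0.90 (SE 0.21, adjusted p = 0.028), with light mouse 4 below dark mouse 1. Of 9 kinases of the JNK and p38 cascades, 4 MAPK phosphatases outside the 9 genes and 1 further Sprouty or Spred gene tested, 0 passed. At an unadjusted p of 0.05, 1 kinase of the JNK and p38 cascades and 0 genes of the other 3 lists with no call passed, and DESeq2 called 0 in these 4 lists. The median log2 fold changes of these 5 lists were 0.002, 0.039, 0.033, 0.19 and 0.50, in the order given.

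In the cultures, the early genes again had the largest RNA-seq ratios of these lists. With BDNF, 9 of 10 counted were at least 2-fold higher, led by Npas4 at 62.1 (16.8 to 519, 117 reads against 2), Fos at 33.6 (16.1 to 84.7) and Egr2 at 30.2 (8.0 to 256). With glu/gly, 5 of 6 were, led by Npas4 at 35.1, Fos at 21.5 and Arc at 9.90. After 10 min of KCl, 2 of 5 were, Fos at 3.22 and Junb at 2.31, and after 30 min 9 of 11, led by Fosb at 23.0, Fos at 18.3 and Egr2 at 13.3. Dusp1, with few RNA-seq reads, also had a lower ratio at 10 min than at 30 min of KCl, in RPFs and tags. The assays differ from the RNA-seq of the early genes, so that the sizes of the ratios are not compared.

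Other components past 2-fold in RNA-seq are given beside all genes, of which 2.71% were at least 2-fold lower with BDNF. The shares were 2.98% lower and 3.13% higher with glu/gly, and 2.97% and 7.94% lower after 10 and 30 min of KCl. Nothing is read from the number of components. Those past 2-fold included Egfr (0.39, interval 0.20 to 0.74), Fgfr2 (0.48, 0.26 to 0.85) and Mknk1 (0.45, 0.18 to 1.04) with BDNF. With glu/gly, Nf1 (2.22, 1.72 to 2.88), which codes for neurofibromin, was higher and Mknk1 (0.36, 0.15 to 0.83) lower. With KCl, Shc1 (0.41, 0.10 to 1.2) after 10 min and Fgfr1 (0.38, 0.23 to 0.61), Gab1 (1 read against 20) and Spry1 (0.37, 0.090 to 1.15) after 30 min were lower. Several of these intervals include 1, and the glial and endothelial markers were lower with BDNF as given above.

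The genes whose RNA-seq levels ran most like those of a feedback gene over the 12 libraries were found by Pearson's r of log2(RPM + 1) among 5115 genes, as a description. These were Rims4 (0.91), Gspt2 (0.89) and Bend6 (0.88) for Dusp6, Ttc19 (0.92), Rnf6 (0.91) and Purb (0.90) for Spry2, and Uhrf1bp1l (0.93), Braf (0.91) and Slc39a10 (0.89) for Spred1. Within a library, all genes share its depth and its RNA selection, and both differed between libraries. Of the 9 names, 2 (Rims4 and Uhrf1bp1l) recurred with ranks, and 0 in the RPF libraries.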

How the data were processed

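The authors counted RNA-seq reads and RPFs over the coding part of a single transcript for each gene, its opening 50 nt excepted, and deposited a count, an RPM value and a log2 TE. Their RPM refers to a total of which the listed genes held 13.8% to 46.1% in RNA-seq and 51.3% to 79.5% in RPFs. The deposited tail tables hold a tag count per gene and its tail length in nt, taken as means except in the hippocampi, whose files name no measure and hold multiples of 0.5 nt throughout, as medians do. RNA was poly(A)-selected for the hippocampi and depleted of ribosomal RNA for adult cortex and 6 cultures. STAR 2.4.2, bedtools and mm10 are from the submitters' processing notes. Tags on standards (1.41% to 19.0%) were left out. The 9 genes and all lists were chosen with earlier results of these data known.

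Mice were compared on all genes, with edgeR 4.0.16 on counts (TMM, filterByExpr, quasi-likelihood) and limma 3.58.1 on mean tails of genes with at least 50 tags in every mouse, in R 4.3.3, with two-sided tests and Benjamini-Hochberg adjustment. limma's prior degrees of freedom were infinite, so every gene shared 1 SE. The labels number the mice 1 to 4 in both groups. DESeq2 1.42.0 was an alternative. Fits were first tested on simulated data. Nothing says more than that the 8 libraries are separate mice, and no pair of them agreed within counting noise. Culture and tissue ratios used reads on genes, Clopper-Pearson 95% intervals and at least 20 reads over the pair. TE is the log2 ratio of the RPM values and equals the deposited log2 TE within rounding for all 27 values. Named list genes passed an adjusted p of 0.05 in the mice or, up to 3 per list and stimulus, changed at least 2-fold in RNA-seq. Genes alike were the 3 with the highest r for each feedback gene at 10 RPM or more in at least 6 libraries. The 2 RPF libraries whose labels named conflicting miRNAs were not used here. The values of 1 list gene that met the rule for named genes are not reported here.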

Additional observations from a re-analysis of the deposited data

Results flagged for a closer look

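In the 4 light mice, the mean tail of Dusp1 in light mouse 3, 82.7 nt, lay far from the other 3, at 61.1 to 64.7 nt. The gap took up 0.833 of the group's range, beyond Dixon's 95% limit for 4 samples. The all-gene median tail of that mouse, 97.8 nt, was also the longest of the 8. In the 4 dark mice, the mean tail of Dusp6 in dark mouse 4, 96.9 nt, lay apart from 90.8 to 91.6 nt in the others, a gap of 0.865 of the range. Of 24 groups of values examined these 2 were singled out, and chance does so in about 1 of 20 groups.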

How the results depend on the processing

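No pairing of the mice by their numbers 1 to 4 was seen. Between dark and light mice of the same number, r was -0.20 to 0.03 for levels and -0.11 to 0.04 for tails. Such correlations cannot exclude a pairing. With the replicate block, 4 feedback genes were higher in level and 0 longer in tail, as without it. Over all genes it gave 103 higher and 10 lower levels and 1 longer tail, against 116, 12 and 10 without. Leaving out 1 mouse gave 4 to 5 higher levels, 0 lower, 0 to 2 longer tails and 0 to 1 shorter tails of the feedback genes. Spry4 was the fifth, called without dark mouse 4 (log2 fold change 1.19) or without a filter on low counts. Longer tails numbered 2 at 100 tags (of 3 tested) and 2 with a variance trend. The tail change of Dusp6 turned to -3.78 nt with each mouse centred and -0.012 on log2 tails, and ran from -7.49 to 4.65 nt with 1 mouse left out, the lowest without light mouse 3. Over all genes, longer tails numbered 1 on log2 tails, 1 weighted by tags, 3 centred, 5 at 20 tags (with 3 shorter) and 1 to 21 with 1 mouse left out, the most without light mouse 4. Unfiltered, 162 genes were higher and 30 lower in level, and the lower ones numbered 6 to 20 with 1 mouse left out. DESeq2, upper-quartile scaling and no scaling also gave 4. At 1.5-fold, the feedback genes higher were 2 with BDNF in TAIL-seq, 1 with glu/gly in RNA-seq, and with 10 min of KCl 1 in RNA-seq, 2 in RPFs and 1 in TAIL-seq. With 30 min of KCl they were 2 in RNA-seq, 2 in RPFs, 3 in TAIL-seq and 3 lower in RPFs, and 2 were lower in adult hippocampus in RNA-seq. Scaling by the authors' RPM gave 1 higher in RPFs with glu/gly, 0 higher in RNA-seq with 30 min of KCl and 2 lower in adult hippocampus in RNA-seq. At 50 reads, 0 of 3 were higher in RNA-seq with 30 min of KCl. TE above the median gene went from 11 of 27 values to 2 of 9 at 30 RPM. Tail gains of at least 10 nt in culture went from 4 of 16 to 0 of 4 at 100 tags, and losses from 0 to 2 of 21 at 20 tags. Of the 9 names alike, 2 recurred with Spearman's rho and 0 with RPF libraries. The cause of these shifts was not tested. Depth limited RNA-seq of Dusp1, Dusp5 and Spry4 in culture, at 1 to 18 reads per stimulus library.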
